A study of Mus musculus with 15 samples.

Results

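The genes described here are those by which heart muscle takes up long-chain fatty acids and burns them by beta-oxidation in the mitochondria. They were named as a list of 34 genes, out of 18190 genes with a probe set of their own on the arrays, and each was represented by the probe set with the highest mean log2 signal among those annotated to its symbol alone. 32 of the 34 could be tested. Acsl1, a long-chain acyl-CoA synthetase, matched no probe set by symbol, and the probe set of Cpt1b, the muscle form of carnitine palmitoyltransferase 1, was annotated to several genes together, so neither has a value here. All 32 lay above the filter on dim probe sets.

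The samples were pieces of heart apex from male mice aged 9 to 10 weeks. There were 5 C3H mice (C3H/HeJ), 5 B6C3F1 mice (B6C3F1/J, the F1 hybrid of the other 2 strains) and 5 C57Bl/6 mice (C57BL/6J), and each mouse gave 1 Affymetrix array of 45096 probe sets. All 15 mice carried a radiotelemetry transmitter implanted in the abdomen under tribromoethanol anaesthesia at 7 weeks and received no other treatment, so no group without surgery was available for comparison. Values are log2(signal + 16), and a difference between strains is a difference of these log2 values with its standard error (SE) from limma, fitted to all 12175 genes past the filter. A gene was called changed at an adjusted p under 0.05 after Benjamini-Hochberg adjustment over all of them.

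Fatty acids reach the cardiomyocyte from albumin or from lipoprotein triglyceride, cross the membrane with the help of CD36 and transport proteins, and are bound by a cytosolic carrier. They are activated to acyl-CoA, carried into mitochondria as carnitine esters, and shortened by repeated cycles of dehydrogenation, hydration, a further dehydrogenation and thiolysis, with auxiliary enzymes for unsaturated chains and a flavoprotein relay that hands electrons to the respiratory chain. The adult heart takes most of its energy from this pathway, and many of its genes are known targets of PPAR-alpha and of the oestrogen-related receptors.

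On every array the 2% trimmed mean of all signals was between 500.26 and 500.28, so the arrays had been scaled to a common level. The 10 cardiomyocyte markers examined were all above the dim filter. The sample numbers in the array titles run in 1 block per strain. The labels do not say what these numbers stand for, and any order they reflect cannot be told apart from strain. The poly-A labelling controls averaged 9.19 ± 0.65 in C3H, 8.54 ± 0.12 in B6C3F1 and 8.58 ± 0.59 in C57Bl/6 (log2, SD, n = 5 each), and the log2 ratio of the 3′ to the 5′ Gapdh probe set averaged 0.60 ± 0.26 in C3H, 0.90 ± 0.21 in B6C3F1 and 0.85 ± 0.24 in C57Bl/6 (SD, n = 5 each). C3H replicate 4 stood apart from the other C3H arrays in both measures, at 10.34 against 8.79 to 9.05 for the controls and 1.06 against 0.39 to 0.56 for Gapdh, and C57Bl/6 replicate 5 was the lowest of its strain in both, at 7.58 and 0.46. Without C3H replicate 4 the number of fatty acid genes called between C3H and C57Bl/6 was 11, as with it, but the genes were not all the same. Acsl5 was then not called (limma adjusted p = 0.0819) and Mlycd was called lower in C3H (limma adjusted p = 0.0497).

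RefSeq promoter windows of 300 bases (GRCm38.p6, 250 before and 50 after the start site) were found for 28 of the 34 genes, as 32 windows. The AGGTCA motif, the unit of the elements that nuclear receptors such as PPAR-alpha bind, was searched on both strands. It stood in 6 of the 32 windows (18.8%), those of Acacb, Acadm, Acadvl, Cd36, Cpt1a and Echs1, against 16.3% of all 32851 windows. No member window held 2 copies with 1 base between them, a form in 0.0396% of all windows, or AGGTCA directly preceded by TCA, a form in 0.423%. The E-box CACGTG stood in 2 windows (6.25%), those of Lipe and Slc27a1, against 7.15% of all. Of the genes with an AGGTCA match, Cd36, Acadvl and Acacb also passed the test between the parental strains below, so their windows are shown. The windows run from 5′ to 3′ on the strand of the gene, with the match in capitals (AGGTCA, or its reverse complement TGACCT). They lie at chr5:17835847-17836146 on the minus strand for Cd36, chr11:70015379-70015678 on the minus strand for Acadvl and chr5:114165268-114165567 on the plus strand for Acacb.
Cd36: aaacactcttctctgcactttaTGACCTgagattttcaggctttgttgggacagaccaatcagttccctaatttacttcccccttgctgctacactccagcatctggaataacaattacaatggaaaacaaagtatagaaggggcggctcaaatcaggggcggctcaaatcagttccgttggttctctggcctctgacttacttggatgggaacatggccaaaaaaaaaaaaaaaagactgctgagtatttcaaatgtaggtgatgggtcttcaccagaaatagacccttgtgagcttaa
Acadvl: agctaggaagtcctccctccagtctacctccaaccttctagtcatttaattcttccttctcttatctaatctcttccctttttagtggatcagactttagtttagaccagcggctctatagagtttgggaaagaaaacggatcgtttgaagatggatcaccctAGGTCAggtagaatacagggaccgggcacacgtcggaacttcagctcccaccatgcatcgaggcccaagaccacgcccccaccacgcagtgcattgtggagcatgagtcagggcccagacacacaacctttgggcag
Acacb: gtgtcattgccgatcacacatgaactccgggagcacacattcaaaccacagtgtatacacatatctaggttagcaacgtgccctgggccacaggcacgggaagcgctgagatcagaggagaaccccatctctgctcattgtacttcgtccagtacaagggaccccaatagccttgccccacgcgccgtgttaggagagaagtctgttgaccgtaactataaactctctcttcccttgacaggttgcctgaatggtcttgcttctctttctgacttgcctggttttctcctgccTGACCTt

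Hadha and Hadhb, which encode the alpha and beta subunits of the mitochondrial trifunctional protein, face away from each other on chromosome 5 with start sites 273 bases apart. Their windows share 228 bases, positions 30155003 to 30155230. The window of Hadhb, at chr5:30155003-30155302 on the plus strand, is shown with the shared bases in capitals because this stretch lies between the 2 start sites and before both.
Hadhb: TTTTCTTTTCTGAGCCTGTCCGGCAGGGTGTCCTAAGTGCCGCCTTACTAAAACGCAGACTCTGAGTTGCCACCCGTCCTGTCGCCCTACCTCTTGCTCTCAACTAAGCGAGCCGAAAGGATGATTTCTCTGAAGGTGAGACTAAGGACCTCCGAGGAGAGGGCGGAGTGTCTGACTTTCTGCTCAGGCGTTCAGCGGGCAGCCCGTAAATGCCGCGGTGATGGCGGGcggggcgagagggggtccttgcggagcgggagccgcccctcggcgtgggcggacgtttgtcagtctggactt

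Between the parental strains, 11 of the 32 genes were called, 10 lower in C3H than in C57Bl/6 and 1 higher, against a background of 16.9% of all tested genes called in either direction, 9.03% lower and 7.83% higher. 27 of the 32 estimates were below 0 (84.4%), against 52.2% of all tested genes, and the median difference was -0.23 for the members and -0.02 for all genes. The differences ran from -0.50 to 0.60 on the log2 scale. The arrays of C3H and C57Bl/6 did not overlap in 5 of the 32 genes, 4 of them lower in C3H, against 11.8% and 6.50% of all tested genes. The 10 lower genes were Decr1, Acacb, Acad9, Acsl5, Acaa2, Cpt2, Etfb, Cd36, Ech1 and Acadvl, and they came from every step except lipolysis. The gene called higher was Slc27a1. In whole tissue, fewer cells of a type and less RNA per cell cannot be told apart.

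**Figure D1:**
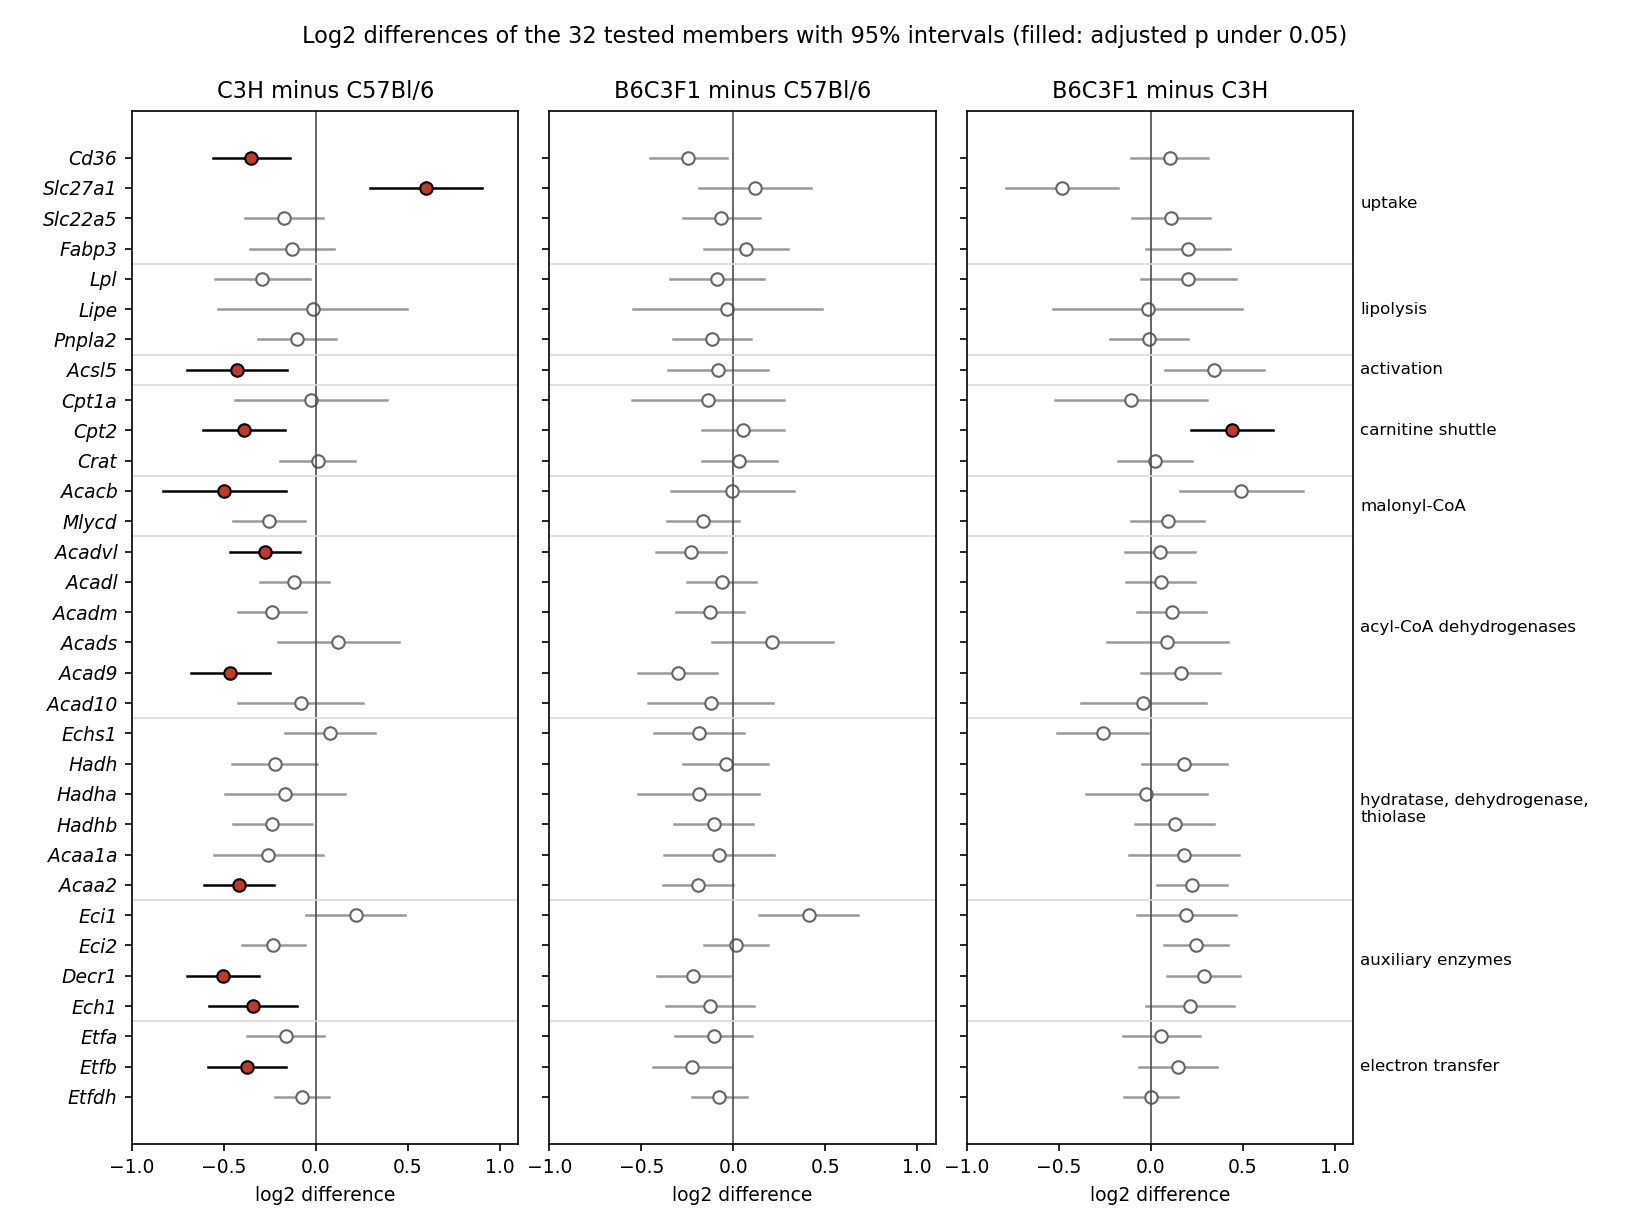
Log2 differences (x axes) of the 32 tested genes (rows, grouped by role) in the 3 strain comparisons, with 95% intervals as bars and filled points for an adjusted p under 0.05. In C3H minus C57Bl/6, 27 of 32 points lie left of 0 and 11 are filled, whereas B6C3F1 minus C57Bl/6 has none filled and B6C3F1 minus C3H has 1, Cpt2.

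Centring each array on its median, in place of the trimmed-mean scaling, gave a median difference between C3H and C57Bl/6 of 0.09 over all genes, in place of -0.02, and of -0.12 over the members, in place of -0.23. Centring moves all genes of an array by the same amount, so the members' median relative to all genes, -0.21, could not change with it. With centring, 23 of the 32 estimates were below 0. Only 4 of the 11 calls were made with that centring, Acad9, Acaa2 and Decr1 lower in C3H and Slc27a1 higher. Over all genes it turned the split of calls to 1290 higher and 623 lower, against 953 higher and 1100 lower. With quantile normalization 12 genes were called, 11 lower and 1 higher, and the members' median was -0.14, or -0.16 relative to all genes. With the Gapdh ratio as a covariate the members' median relative to all genes was -0.15.

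Among the uptake genes, Cd36, the membrane protein that facilitates entry of long-chain fatty acids, measured 14.62, 14.20, 14.45, 14.49 and 14.26 on the C3H arrays, 14.39, 14.58, 14.54, 14.49 and 14.55 on the B6C3F1 arrays, and 15.09, 14.60, 14.69, 14.81 and 14.59 on the C57Bl/6 arrays. All C57Bl/6 values were above all B6C3F1 values, while the highest C3H array lay above 2 C57Bl/6 arrays. Cd36 was 1.28-fold lower in C3H, with a log2 difference from C57Bl/6 of -0.35 ± 0.10 (SE, limma adjusted p = 0.0192, n = 5 each). The hybrid difference from C57Bl/6 was -0.25 (95% interval -0.45 to -0.04) and did not pass (limma adjusted p = 0.163).

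Slc27a1, the fatty acid transport protein FATP1, went the other way. It measured 10.09, 10.07, 10.25, 10.14 and 9.97 in C3H, 9.48, 9.82, 9.74, 9.62 and 9.47 in B6C3F1, and 9.82, 9.00, 9.42, 9.95 and 9.35 in C57Bl/6. Every C3H array was above every array of the other strains, and the C57Bl/6 mice were spread widely, with an SD of 0.38. The C3H level of Slc27a1 exceeded that of C57Bl/6 1.51-fold (log2 difference 0.60 ± 0.15 SE, limma adjusted p = 0.00668). Estimates and intervals of dimmer probe sets here came from a separate fit of every probe set with 1 symbol, without the dim filter. Their adjusted p values came from such a fit of the probe sets past the filter. A dimmer probe set of Slc27a1 gave -0.14 (95% interval -0.44 to 0.16, limma adjusted p = 0.57), so the direction for this gene rests on 1 probe set.

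The other uptake genes were not called. Slc22a5, the carnitine transporter OCTN2, differed by -0.18 (95% interval -0.39 to 0.04) and Fabp3, the cytosolic fatty acid binding protein of heart, by -0.13 (-0.36 to 0.10) between C3H and C57Bl/6.

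None of the 3 lipases was called between C3H and C57Bl/6. Lpl, which releases fatty acids from lipoproteins at the capillary wall, ranged from 15.38 to 15.94 in C3H and from 15.76 to 16.18 in C57Bl/6, a difference of -0.29 (95% interval -0.55 to -0.03, limma adjusted p = 0.116). Pnpla2, the adipose triglyceride lipase, differed by -0.11 (-0.32 to 0.11). For Lipe, the hormone-sensitive lipase, the interval ran from -0.53 to 0.50 around -0.02, so at the spread of this dim probe set a difference of the size seen in the called genes was not detectable.

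Acsl5, the tested long-chain acyl-CoA synthetase, measured 10.10, 10.33, 9.93, 9.61 and 10.13 in C3H, 10.41, 10.22, 10.17, 10.55 and 10.49 in B6C3F1, and 10.23, 10.30, 10.57, 10.46 and 10.68 in C57Bl/6. The highest C3H array reached into the range of C57Bl/6. The log2 difference between C3H and C57Bl/6 was -0.43 ± 0.13 (SE, limma adjusted p = 0.0266). It was not called when the signal of the poly-A controls entered the fit (-0.26, limma adjusted p = 0.201).

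Cpt2, the inner-membrane carnitine palmitoyltransferase that returns acyl groups to CoA, was the only gene of the list called in 2 comparisons. It measured 13.01, 13.39, 13.15, 13.28 and 13.61 in C3H, 13.77, 13.93, 13.76, 13.70 and 13.48 in B6C3F1, and 13.68, 13.85, 13.58, 13.57 and 13.71 in C57Bl/6. One C3H array, replicate 5, stood among the arrays of the other strains, and the other 4 lay below all of them. Cpt2 was lower in C3H than in C57Bl/6, with a log2 difference of -0.39 ± 0.11 (limma adjusted p = 0.0144) and higher in B6C3F1 than in C3H by 0.44 ± 0.11 (limma adjusted p = 0.0149). These comparisons share the C3H arrays. With the signal of the poly-A controls in the fit the log2 differences were -0.35 and 0.40 and did not pass (limma adjusted p = 0.0669 and 0.098). The difference of Cpt2 between B6C3F1 and C3H also did not pass with the Gapdh ratio in the fit (0.40, limma adjusted p = 0.0546) or with arrays centred on their median (0.37, limma adjusted p = 0.0692).

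Cpt1a, the liver form of the outer-membrane carnitine palmitoyltransferase, differed by -0.03 (95% interval -0.44 to 0.39) and Crat, carnitine acetyltransferase, by 0.01 (-0.19 to 0.21) between C3H and C57Bl/6. Neither was called.

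Acacb, the acetyl-CoA carboxylase whose product malonyl-CoA inhibits carnitine palmitoyltransferase 1, measured 11.24, 11.32, 11.42, 11.50 and 11.19 in C3H, 11.92, 11.83, 12.10, 11.85 and 11.43 in B6C3F1, and 11.89, 12.24, 11.74, 12.12 and 11.16 in C57Bl/6. C57Bl/6 replicate 5 lay below all C3H arrays, and the other 4 C57Bl/6 arrays lay above them. The difference between C3H and C57Bl/6 was -0.50 ± 0.16 (SE, limma adjusted p = 0.0371), and that between B6C3F1 and C3H was 0.49 ± 0.16 (limma adjusted p = 0.0715). Mlycd, which degrades malonyl-CoA, differed by -0.26 (95% interval -0.45 to -0.06) and was not called (limma adjusted p = 0.0689).

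Of the 6 acyl-CoA dehydrogenases 2 were called, both lower in C3H. Acadvl, which starts oxidation of the longest chains at the inner membrane, measured 14.99, 14.95, 14.75, 15.06 and 15.09 in C3H, 14.83, 15.14, 15.15, 14.99 and 14.98 in B6C3F1, and 15.45, 15.21, 15.13, 15.34 and 15.10 in C57Bl/6. The C3H and C57Bl/6 arrays did not overlap, though the gap between 15.09 and 15.10 was narrow. The difference was -0.28 ± 0.09 (SE, limma adjusted p = 0.0408).

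Acad9, a flavoprotein of this family also required for the assembly of respiratory complex I, measured 10.39, 10.27, 10.19, 10.37 and 10.68 in C3H, 10.50, 10.47, 10.47, 10.63 and 10.67 in B6C3F1, and 10.93, 10.99, 10.75, 10.92 and 10.64 in C57Bl/6. A single C3H array, replicate 5, lay above the lowest C57Bl/6 array. Acad9 was 1.38-fold lower in C3H (log2 difference -0.47 ± 0.10 SE, limma adjusted p = 0.00307), and a dimmer probe set gave -0.74 (limma adjusted p = 0.00513).

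Acadm, the medium-chain enzyme, measured 15.06 to 15.19 in C3H and 15.24 to 15.60 in C57Bl/6. These ranges did not overlap, yet the difference of -0.24 did not pass (95% interval -0.42 to -0.05, limma adjusted p = 0.0715). Acadl, the long-chain enzyme of mice, gave -0.12 (-0.31 to 0.07) on its bright probe set and -1.19 (-1.76 to -0.62, limma adjusted p = 0.00275) on a second one near the dim filter, with means of 6.26 in C3H and 7.44 in C57Bl/6. The remaining members of the family were not called, Acads at 0.12 (-0.21 to 0.45) and Acad10 at -0.08 (-0.42 to 0.26).

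**Figure D2:**
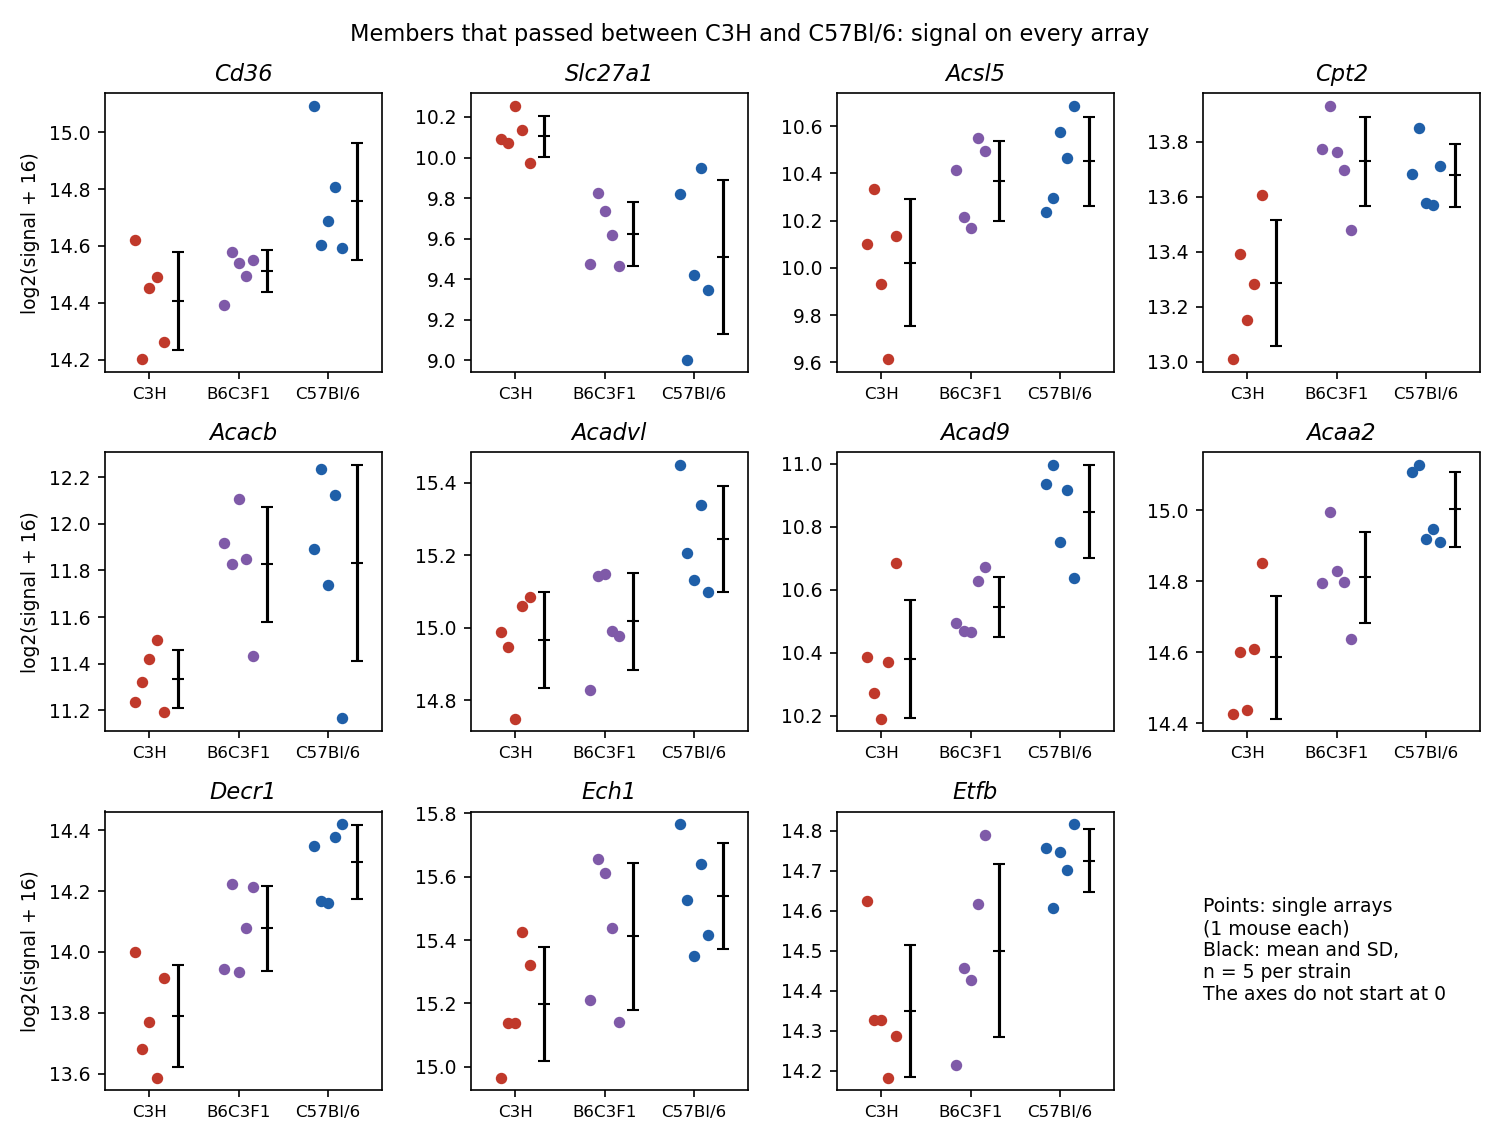
Log2(signal + 16) (y axes, which do not start at 0) of the 11 genes called between C3H and C57Bl/6, with 1 point per array and the mean and SD (n = 5 per strain) in black. In Slc27a1 all C3H points lie above the others, and in Acadvl, Acaa2 and Decr1 all C3H points lie below all C57Bl/6 points, while the other 7 genes overlap.

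In the hydratase, dehydrogenase and thiolase steps 1 of 6 genes was called. Acaa2, the mitochondrial thiolase of the last step, measured 14.43, 14.60, 14.44, 14.61 and 14.85 in C3H, 14.79, 14.996, 14.83, 14.80 and 14.64 in B6C3F1, and 15.11, 15.13, 14.92, 14.95 and 14.91 in C57Bl/6. No C3H array reached the C57Bl/6 range, and B6C3F1 lay between and overlapped both. The difference was -0.42 ± 0.09 (SE, limma adjusted p = 0.00298). 2 further probe sets of Acaa2 gave -0.60 and -0.67, with adjusted p values of 1.75e-05 and 0.00264 from limma.

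The remaining 5 genes of these steps were not called between C3H and C57Bl/6. The subunits of the trifunctional protein, whose promoter windows share the capitals printed above, gave -0.17 (95% interval -0.49 to 0.16) for Hadha and -0.24 (-0.45 to -0.02, limma adjusted p = 0.125) for Hadhb. Hadh, the short-chain hydroxyacyl-CoA dehydrogenase, gave -0.23 (-0.45 to 0.00), Acaa1a, a peroxisomal thiolase, gave -0.26 (-0.56 to 0.04), and Echs1, the short-chain hydratase, gave 0.08 (-0.17 to 0.32).

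Of the 4 auxiliary enzymes 2 were called. Decr1, the mitochondrial dienoyl-CoA reductase needed for polyunsaturated chains, showed the lowest adjusted p of the list. It measured 13.999, 13.68, 13.77, 13.59 and 13.92 in C3H, 13.94, 14.22, 13.93, 14.08 and 14.21 in B6C3F1, and 14.35, 14.17, 14.16, 14.38 and 14.42 in C57Bl/6. All C3H arrays were below all C57Bl/6 arrays, and B6C3F1 overlapped both. Decr1 was 1.42-fold lower in C3H (log2 difference -0.50 ± 0.09 SE, limma adjusted p = 0.000696), and a second probe set gave -0.76 (limma adjusted p = 6.22e-06).

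Ech1, the dienoyl-CoA isomerase, measured 14.97, 15.14, 15.14, 15.43 and 15.32 in C3H, 15.21, 15.66, 15.61, 15.44 and 15.14 in B6C3F1, and 15.77, 15.53, 15.35, 15.64 and 15.42 in C57Bl/6. The groups overlapped in 1 C3H array and 2 C57Bl/6 arrays, and the difference was -0.34 ± 0.11 (SE, limma adjusted p = 0.046). The enoyl-CoA isomerases were not called and differed in sign, Eci1 at 0.22 (95% interval -0.05 to 0.48) and Eci2 at -0.23 (-0.40 to -0.06, limma adjusted p = 0.0614).

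In electron transfer 1 of 3 genes was called. Etfb, the beta subunit of the electron transfer flavoprotein, measured 14.62, 14.33, 14.33, 14.18 and 14.29 in C3H, 14.21, 14.46, 14.43, 14.62 and 14.79 in B6C3F1, and 14.76, 14.61, 14.75, 14.70 and 14.82 in C57Bl/6. C3H replicate 1 was the only C3H array to reach the C57Bl/6 range. The difference was -0.38 ± 0.10 (SE, limma adjusted p = 0.0135), and with the signal of the poly-A controls in the fit it was -0.33 and did not pass (limma adjusted p = 0.0728). Its partner subunit Etfa gave -0.16 (95% interval -0.37 to 0.04) and Etfdh, the oxidoreductase that passes the electrons to ubiquinone, gave -0.08 (-0.23 to 0.07), and neither was called.

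Array by array, the median of the 32 genes relative to their C57Bl/6 means was -0.27, -0.25, -0.26, -0.18 and -0.16 on the C3H arrays. It lay between -0.17 and -0.01 on the B6C3F1 arrays and between -0.13 and 0.10 on the C57Bl/6 arrays, while the median over all tested genes stayed between -0.03 and 0.03 on all 15. All C3H arrays were below all C57Bl/6 arrays in this median, though narrowly (-0.16 against -0.13), and C57Bl/6 replicates 1 and 4, at 0.10 and 0.08, were the high ones. Leaving out either of them gave 7 calls between C3H and C57Bl/6 in place of 11, as did leaving out C3H replicate 2 or 3. In B6C3F1 the Gapdh ratio was 0.66 and 0.69 on replicates 1 and 5, with medians of -0.17 and -0.16. It was 1.04 and 1.13 on replicates 2 and 3, both at -0.01. In C57Bl/6 the ratio was 0.46 on replicate 5, at -0.13, and 0.95 and 1.05 on replicates 1 and 4. Replicate 2 of C57Bl/6 had a ratio of 1.02 and a median of -0.02. How far this median follows the Gapdh ratio was not tested.

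**Figure D3:**
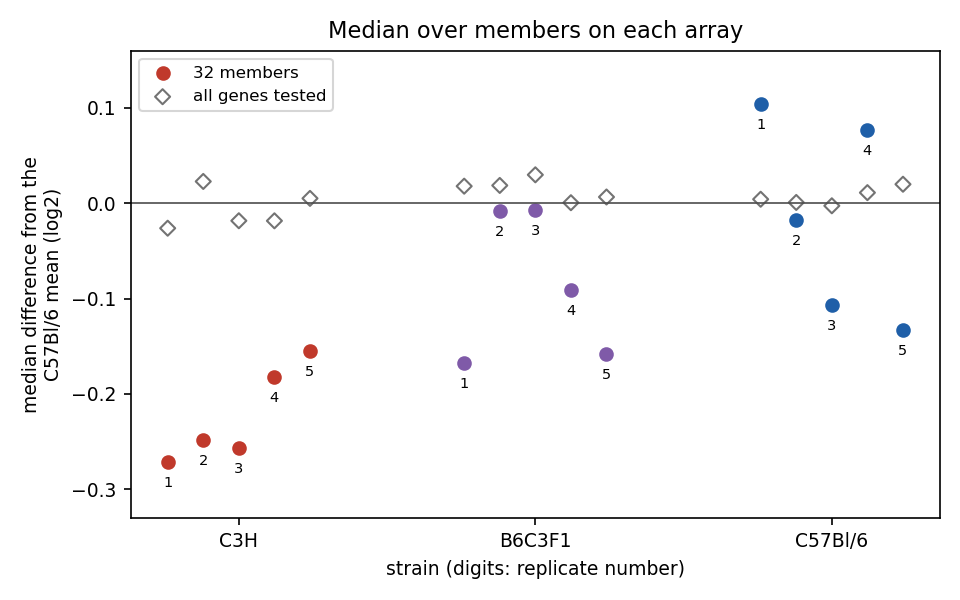
Median log2 difference from the C57Bl/6 mean (y axis) on each array, by strain and replicate number, over the 32 genes (filled) and over all tested genes (open diamonds). The filled points lie between -0.27 and -0.16 in C3H, -0.17 and -0.01 in B6C3F1, and -0.13 and 0.10 in C57Bl/6, and the open diamonds stay within 0.03 of 0.

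Level and technical measures stood beside these differences. Of the 291 tested genes with a mean log2 signal above 14, 63.9% were lower in C3H, with a median of -0.07, and 9.62% were called lower and 2.06% higher. The 14 members in that range had estimates below 0 in all 14 cases, a median of -0.26, and 6 calls lower in C3H. At levels from 12 to 14, 4 of 7 members were below 0 and 1 was called lower, against 12.3% of all genes in that range. From 10 to 12, 5 of 6 were below 0 and 3 were called lower, against 11.8%. From 8 to 10, 3 of 4 were below 0, with 0 called lower, against 10.4%, and 1 called higher, against 8.21%. The 1 member under 8 was below 0 and not called. The 10 cardiomyocyte markers had a median difference of -0.19, with 9 of 10 below 0 and none called, and their summed signal ranged from 426000 to 572700 in C3H, 434900 to 635400 in B6C3F1 and 491900 to 643400 in C57Bl/6. The 10 endothelial markers had a median of -0.43, with 8 of 10 below 0 and 3 called lower (Cldn5, Cdh5 and Esam). Eng and Gpihbp1 had higher means in C3H than in C57Bl/6, at 11.30 against 11.02 and 11.68 against 11.43, and were not called. The 10 summed to between 14220 and 17610 in C3H, 16180 and 20520 in B6C3F1, and 17390 and 19840 in C57Bl/6. Of 10 adipocyte markers 8 had a probe set of their own and 3 were above the dim filter. The defining ones Adipoq, Lep, Retn and Cidec were below it. Of the 3, Thrsp at -2.00 and Aqp7 at -1.02 were called lower in C3H than in C57Bl/6 (limma adjusted p = 1.58e-08 and 0.00466). Both were called higher in B6C3F1 than in C3H, at 1.65 and 1.04. Fabp4, the brightest of the 3, was not called in either comparison, at 0.06 (limma adjusted p = 0.786) and 0.17. The 8 adipocyte markers summed to between 22290 and 36360 in C3H, 26890 and 40430 in B6C3F1, and 26660 and 34800 in C57Bl/6. This sum was mostly the signal of Fabp4, at a mean log2 level of 14.83 against 10.02 for Thrsp, the next brightest. Of the 10 skeletal muscle markers 4 were above the filter, with a median of -0.28 and 1 called lower in C3H (Tnni2), and the list summed to between 7370 and 45460 in C3H, 24270 and 44460 in B6C3F1, and 6516 and 26020 in C57Bl/6. Of the fibroblast markers 3 of 8 were called higher in C3H (Tcf21, Lum and Dcn) and 0 lower. Their median was 0.07, with 3 of 8 below 0, Col3a1 and Col1a1 among them. Of the macrophage markers 1 of 10 was called higher (Cd68) and 1 lower (Adgre1), and no brown adipocyte marker was called, with Ucp1 below the filter. The part of these cell types in the differences of the fatty acid genes was not tested. With the Gapdh ratio as a covariate 7 of the 11 calls were made, and Cd36 at -0.29, Acacb at -0.28, Acadvl at -0.18 and Ech1 at -0.19 were not (limma adjusted p of 0.0623, 0.17, 0.148 and 0.181).

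In the hybrid, none of the 32 genes was called against C57Bl/6, where the background was 4.34% of all tested genes, 2.31% higher and 2.04% lower. At an unadjusted p under 0.05 there were 7 in limma (21.9%), a share near the 21.4% of all tested genes. The estimates were below 0 in 25 of 32, with a median of -0.10 against 0.01 for all genes. The arrays did not overlap in 1 gene, Cd36, which was lower in B6C3F1, against 6.51% of all tested genes in either direction and 3.33% lower. The nearest to the threshold were Eci1, at 0.41 ± 0.13 (limma adjusted p = 0.0735), and Acad9, at -0.30 ± 0.10 (limma adjusted p = 0.0965). Eci1 measured 13.57 to 14.06 in B6C3F1 and 13.32 to 13.79 in C57Bl/6, so the ranges overlapped. Eci1 was called when only these 2 strains were fitted (limma adjusted p = 0.045).

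Against C3H, the hybrid had 1 call, Cpt2, where 6.95% of all tested genes were called and 3.99% were called higher. 25 of the 32 estimates were above 0, with a median of 0.11 against 0.03 for all genes, and 8 had an unadjusted p under 0.05 (25%, against 20.7% of all tested genes). With the Gapdh ratio as a covariate the median was 0.03 both for the members and for all genes, and 11 estimates were below 0 in place of 7. With the poly-A controls as a covariate the medians were 0.18 and 0.02, and 5 estimates were below 0. In the main fit the genes closest to the threshold were Slc27a1 at -0.48 ± 0.15 (limma adjusted p = 0.0521), Acacb at 0.49 ± 0.16 (0.0715), Decr1 at 0.29 ± 0.09 (0.073) and Eci2 at 0.25 ± 0.08 (0.0818). For Slc27a1 all B6C3F1 arrays lay below all C3H arrays, and in no other gene of the list did the arrays of these strains stay apart, against 6.82% of all tested genes in either direction and 2.96% lower. Without C3H replicate 5 there were 5 calls, and the calls over all tested genes were then 1163 (9.55%) in place of 846. In that fit Cpt2, Acaa2, Eci2 and Decr1 were higher and Slc27a1 lower in B6C3F1.

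Against the mean of the parents no gene of the list was called in the hybrid, and 0.698% of all tested genes were, 0.534% higher and 0.164% lower. In limma 3 had an unadjusted p under 0.05 (9.38%, against 15.4% of all tested genes). The estimates were 16 above and 16 below 0, with a median of 0.00, and ran from -0.22 to 0.30. Among the 11 genes called between the parents, the hybrid mean lay between the parental means in 10, and Cpt2 was the exception, with 13.73 ± 0.16 in B6C3F1 against 13.29 ± 0.23 in C3H and 13.68 ± 0.11 in C57Bl/6 (SD, n = 5 each). The hybrid mean was nearer to C57Bl/6 in 7 genes and nearer to C3H in 4, Cd36, Acadvl, Acad9 and Etfb. The 11 genes were selected for a difference between the same parental arrays, which by itself favours a hybrid mean between the parents. Shares over all genes called between the parents were not computed, so these counts show nothing particular to the list. The strain comparisons share arrays, since C3H, B6C3F1 and C57Bl/6 each enter more than 1 of them.

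The 32 genes had 59 probe sets between them, 20 genes having several. Of the 27 probe sets other than the brightest, 23 passed the dim filter, 15 with the sign of the brightest in C3H minus C57Bl/6 and 8 with the opposite sign, and 6 were called. The 6 belonged to Cd36, Acadl, Acad9, Decr1 and, with 2, Acaa2, and all were lower in C3H. Of the genes called on the brightest probe set, 3 had another past the filter that was not called, Slc27a1 at -0.14, Cpt2 at 0.13 (95% interval -0.60 to 0.87) and 1 of the 3 of Cd36 at -0.14 (-0.40 to 0.11), whose remaining probe set gave -0.72 (limma adjusted p = 0.00255). In the hybrid comparisons 3 of these other probe sets were called although the brightest of the same gene was not. One of Acaa2 was lower in B6C3F1 than in C57Bl/6 (-0.38, limma adjusted p = 0.0105), and those of Decr1 (0.54, limma adjusted p = 0.00103) and Acaa1a (0.88, limma adjusted p = 0.0248) were higher in B6C3F1 than in C3H. Whether sequence differences between the strains under the probes bear on these values was not tested.

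**Figure D4:**
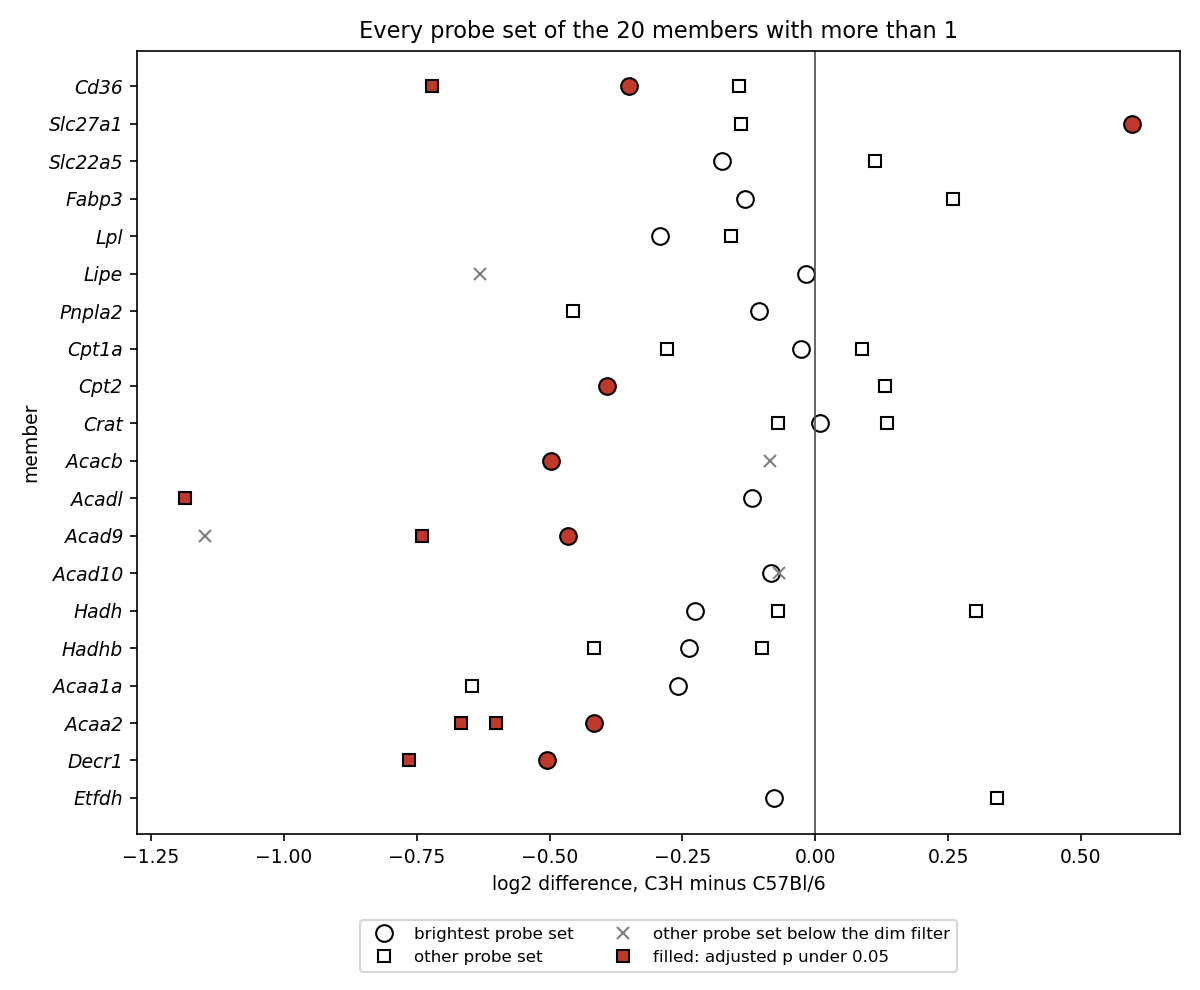
Log2 difference, C3H minus C57Bl/6 (x axis), of every probe set of the 20 genes with more than 1 (rows), with circles for the brightest, squares for others, crosses for those below the dim filter, and filled symbols for an adjusted p under 0.05. The probe sets of Acaa2, Decr1 and Acad9 all lie left of 0, and those of Slc27a1 and Cpt2 lie on both sides of it.

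Among 54 other genes of fatty acid handling, 48 were tested and 11 were called between C3H and C57Bl/6, 9 lower and 2 higher. Over all tested genes 16.9% were called, 9.03% lower and 7.83% higher. The median difference of the 48 was 0.02. The lower ones included larger differences than any in the members. Acot1, a cytosolic acyl-CoA thioesterase, measured 6.89 to 7.99 in C3H, 8.21 to 8.63 in B6C3F1 and 9.16 to 9.65 in C57Bl/6. The strains did not overlap, and Acot1 was 3.71-fold lower in C3H than in C57Bl/6 (log2 difference -1.89 ± 0.19 SE, limma adjusted p = 5.84e-07). Pdk4, the kinase that inhibits pyruvate dehydrogenase, measured 11.32 to 12.86 in C3H, 13.40 to 13.82 in B6C3F1 and 12.93 to 14.09 in C57Bl/6, and its log2 difference between C3H and C57Bl/6 was -1.36 ± 0.25 (limma adjusted p = 0.000578). Angptl4, a secreted inhibitor of lipoprotein lipase, measured 6.80 to 7.77 in C3H and 8.08 to 8.81 in C57Bl/6, a difference of -1.001 ± 0.23 (limma adjusted p = 0.00511).

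The others named by size were Dgat2, which makes triglyceride, at -0.75, Ucp3, the mitochondrial uncoupling protein of muscle, at -0.65, Acot2, a mitochondrial thioesterase, at -0.61, Acad11, a further acyl-CoA dehydrogenase, at -0.52, and Decr2, the peroxisomal dienoyl-CoA reductase, at 0.50. Decr2 was thus higher in C3H (limma adjusted p = 0.0471) where its mitochondrial counterpart Decr1 was lower. Acad11 was at -0.11 (limma adjusted p = 0.548) when probe sets that may match several transcripts were left out. Acot1 and Acot2 are close paralogues, and how far their probe sets separate them was not tested. The lipid droplet proteins Plin2, at -0.39, and Plin5, at -0.25, were called lower, and Dgat1 was called higher at 0.38. Genes for the regulators were not called, with Ppara at 0.24, Ppargc1a at 0.21 and Esrra at 0.22.

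**Figure D5:**
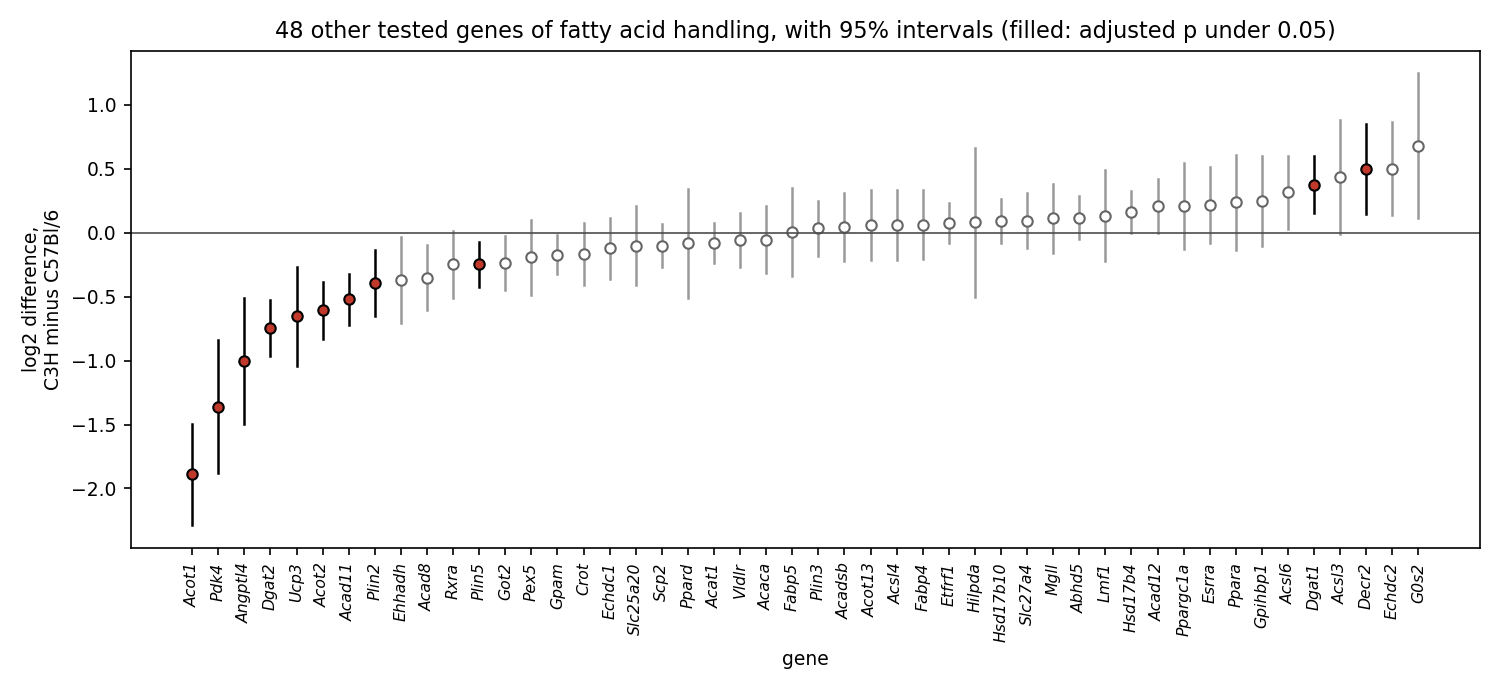
Log2 difference, C3H minus C57Bl/6 (y axis), of 48 other tested genes of fatty acid handling (x axis, ordered by value), with 95% intervals and filled points for an adjusted p under 0.05. Acot1, Pdk4 and Angptl4 lie lowest, and 2 of the 11 filled points, Dgat1 and Decr2, are above 0.

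In the hybrid, Acot1 and Dgat2 were the only genes of these 48 called against C57Bl/6, where 4.34% of all tested genes were called. Both were lower, at -1.01 ± 0.19 (limma adjusted p = 0.00358) and -0.38 ± 0.10 (limma adjusted p = 0.0456). Against C3H the hybrid had 5 called higher, Pdk4 at 1.54, Angptl4 at 1.30, Acot1 at 0.88, Ucp3 at 0.76 and Dgat2 at 0.37. It had 2 called lower, Dgat1 at -0.39 and Acadsb, a branched-chain acyl-CoA dehydrogenase, at -0.43. Over all tested genes 6.95% were called in this comparison, 3.99% higher and 2.96% lower. For Acot1 and Dgat2 the B6C3F1 values were thus called different from each parent.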

How the data were processed

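The arrays were 1-colour Affymetrix arrays of total RNA from heart apex, 50 ng per mouse, labelled with a 2-cycle amplification per the labels' protocols. Signals were computed with MAS5, per the submitters' processing notes, with its version not given in the sources used here. The deposited values are log2 signals, as read from their range and from a trimmed mean equal on all arrays. Probe sets were named through the platform annotation, where 34940 had 1 symbol, 932 several and 9160 none.

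Each value was computed as log2(signal + 16), 1 probe set was kept per gene (the highest mean), and genes under the 40th percentile of mean level (6.03) were left out, leaving 12175. limma 3.58.1 in R 4.3.3 (lmFit, contrasts, eBayes with trend, 2-sided) was fitted to all 15 arrays, with Benjamini-Hochberg adjustment over all genes tested, and the fit was tested on simulated data. Each mouse is 1 replicate, no 2 arrays were identical, and the number of arrays limits the precision. Correlations of the deviations of arrays with the same replicate number ran from -0.0877 to 0.172, with 2 of 15 over 0.1. These were compared with no reference, so they cannot decide whether a shared number pairs mice.

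The members and gene lists were chosen with earlier results of these data known. Values on every array are given for members called in at least 1 strain comparison, and of the other pathway genes the 8 largest differences called between C3H and C57Bl/6 are named. Plin2, Plin5, Dgat1, Acadsb and the regulators were named after their values were seen. Alternatives were the pseudocount, dim filter, normalization, probe set choice, variance trend, replicate block, poly-A or Gapdh covariate, 2-strain fits and each array left out.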

Additional observations from a re-analysis of the deposited data

Results flagged for a closer look

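In 3 of the 96 strain groups examined for the 32 genes, 1 array stood apart from the other 4 by more than 0.71 of the group's whole range. A criterion at the 95% level marks about that share of groups by chance. Acadl in B6C3F1 replicate 1 was low, at 15.02 against 15.26 to 15.36 on the other arrays. Echs1 in C57Bl/6 replicate 1 was high, at 13.78 against 13.29 to 13.39. Etfdh in C57Bl/6 replicate 1 was also high, at 14.54 against 14.34 to 14.39. None of the 3 genes was called in any strain comparison on its brightest probe set.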

How the results depend on the processing

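Between C3H and C57Bl/6 the number of the 32 genes called was 11, fell to 4 with arrays centred on their median and to 7 with the Gapdh ratio as a covariate, and ranged from 7 to 12 with 1 array left out (7 without C3H replicate 2 or 3 or C57Bl/6 replicate 1 or 4). Slc27a1, Acad9, Acaa2 and Decr1 kept their call and sign in all 28 alternatives. Calls were lost in 2 for Cpt2 and Etfb, 4 for Cd36, 7 for Acsl5, 12 for Acacb, 13 for Acadvl and 14 for Ech1, with no change of sign. For B6C3F1 against C57Bl/6 the count of 0 became 2 with quantile normalization (Eci1 and Acadvl), 1 without probe sets ending in _x_at or _s_at (Acaa2), 1 with only the 2 strains fitted, and 0 to 1 with 1 array left out (1 without C3H replicate 1 or 5, B6C3F1 replicate 5 or C57Bl/6 replicate 2). For B6C3F1 against C3H the count of 1 became 2 with a pseudocount of 64, a dim filter at the 60th percentile or quantile normalization, 3 with the Gapdh covariate or only the 2 strains fitted, and 1 to 5 with 1 array left out (5 without C3H replicate 5). Cpt2 was not among the 3 with the Gapdh covariate (Slc27a1, Acsl5 and Decr1), nor the 1 called with centring (Slc27a1) or with the poly-A covariate (Acacb). The replicate block gave 9 calls between C3H and C57Bl/6, 0 for B6C3F1 against C57Bl/6 and 2 for B6C3F1 against C3H. No label states that a shared number pairs mice. Against the parents' mean the count was 0 in every alternative run. With every probe set past the filter fitted, 3163 of 20964 probe sets (15.1%) were called in C3H minus C57Bl/6, against 2053 of 12175 genes (16.9%). For the parents' mean these were 133 (0.634%) against 85 (0.698%). Over all tested genes, the calls of B6C3F1 minus C57Bl/6 (529) went to 328 with centring, 352 without the variance trend and 282 to 850 with 1 array left out. Those of B6C3F1 minus C3H (846) went to 395 with the poly-A covariate, and those against the parents' mean (85) to 47 with that covariate and 42 to 230 with 1 array left out. The causes were not tested. Decr2 lost its call in 18 alternatives, Ucp3 in 3 and Acad11 in 1. Differences of dim probe sets such as Lipe are limited by their spread.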
